A study of Mus musculus with 5 samples.

Results

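The sine oculis homeobox genes Six2, Six3, Six4 and Six5 and the eyes absent genes Eya1, Eya2, Eya3 and Eya4 were chosen by name. The choice was made with earlier results of these data known. These 8 genes are among the 32793 genes in the deposited tables. They were followed in bulk RNA sequencing of whole mouse kidneys at embryonic day 15.5. NICD_mut kidneys (2 libraries) carried the Six2TGC/+ driver and the RosaN1ICD∆PEST allele, and NICD_wt kidneys (3 libraries) carried the RosaN1ICD∆PEST allele without a Cre driver. Six2TGC uses Six2 regulatory sequence to make a Cre fusion protein in nephron progenitors, where Cre switches on a Notch1 intracellular domain that lacks its degradation signal. The driver was present in every NICD_mut library and in no NICD_wt library, so its effects and those of activated Notch1 cannot be told apart. The labels do not say that the libraries came from separate animals, so p-values speak only to the spread among these libraries, part of which may be technical.

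The first family encodes homeodomain proteins related to the fly factor sine oculis, and the second their partners, named after fly eyes absent. Eya proteins do not bind DNA themselves; they join the homeodomain proteins on target genes as co-activators and also carry a phosphatase domain. In the kidney, Eya1 acts early in the metanephric mesenchyme, and Six2 later keeps nephron progenitors of the cap mesenchyme from differentiating. Six3 is known for its role in the developing forebrain and eye.

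Library totals ran from 17361823 to 21356447 counts. The kidney regulators Pax2, Wt1 and Hoxd11 were detected in every library, at 751 counts or more. The 8 skeletal muscle markers, which mark a tissue that also uses both families, summed to 2630 CPM (counts scaled to equal library size) in NICD_mut 1 and 14.1 CPM in NICD_mut 2, against 123, 5.24 and 4.08 CPM in NICD_wt 1, 2 and 3. NICD_mut 1 therefore stood apart from the other libraries in muscle transcripts, and the levels of the 8 genes are given for each NICD_mut library.

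NICD_mut kidneys had almost no Six2, Eya1 at 9.59% of the NICD_wt level and a lower Six4, while Six5 was slightly higher and Six3 was detected at a low level that no NICD_wt library reached. Eya3 and Eya4 were modestly lower, and Eya2 did not pass the test. Counts were compared with the quasi-likelihood test of edgeR, and p-values were adjusted over all tested genes by the method of Benjamini and Hochberg (threshold 0.05). All 8 genes had enough counts to be tested. Six3 passed the filter on low counts through NICD_mut alone, so it is left out of the following count. Of the other 7, 5 fell, 1 rose and 1 did not pass, beside 24.8% of all 15885 tested genes that fell, 23.0% that rose and 47.7% that changed in either direction. In CPM the groups did not overlap for any of the 7, with 6 lower and 1 higher in NICD_mut, beside 67.2% of all tested genes (34.2% lower, 32.9% higher). Of the 7, 3 (Six2, Six4 and Eya1) fell by at least 2-fold, as did 4.01% of all tested genes. The median log2 fold change of the 7 was -0.49, and that of all tested genes was 0.01. Of genes called on counts, 48.1% were higher in NICD_mut, against 60.8% by limma on log2(TPM + 1), on whose scale all genes had a median of 0.112.

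**Figure D1:**
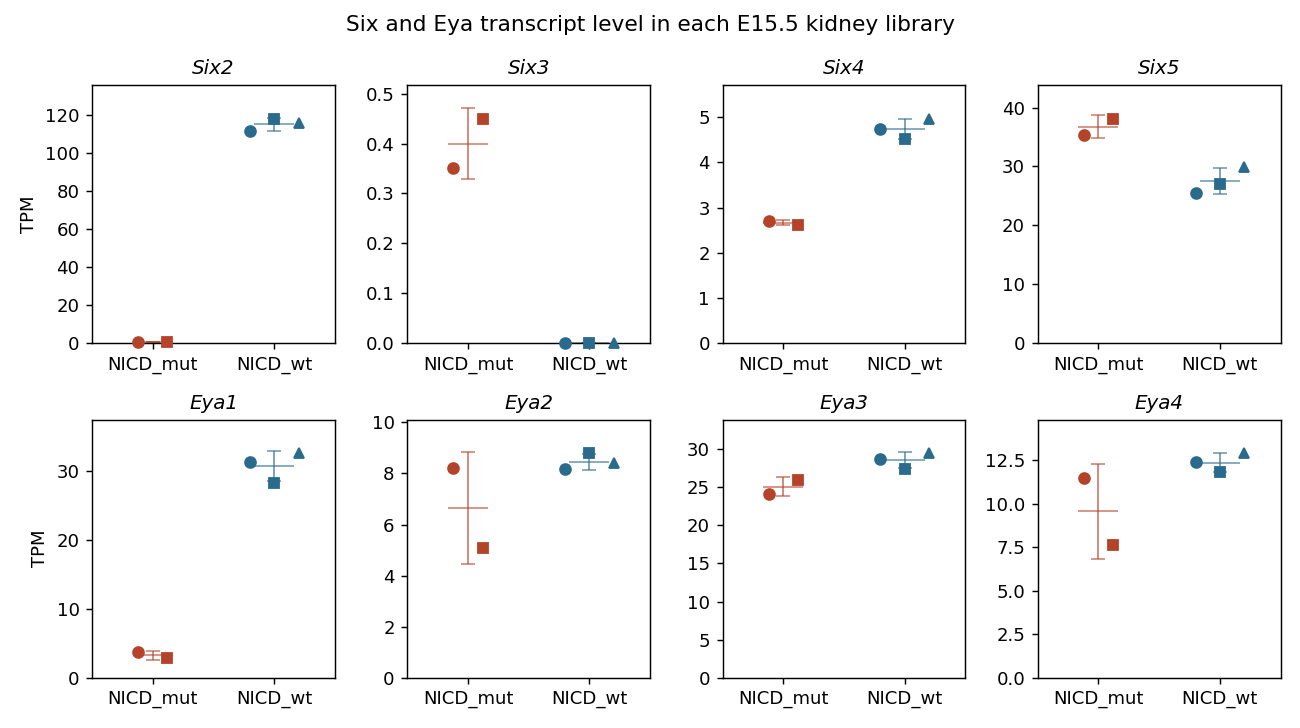
TPM (a level normalised for gene length and library size) of each of the 8 genes in the 2 NICD_mut and 3 NICD_wt libraries; circles, squares and triangles mark replicates 1, 2 and 3, and bars show the mean and SD. Each panel has its own axis from 0. Six2 was at 0.30 and 0.26 TPM in NICD_mut, against 111.55 to 118.13 TPM in NICD_wt, and the Eya2 panel shows the only gene whose groups overlapped on this scale.

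**Figure D2:**
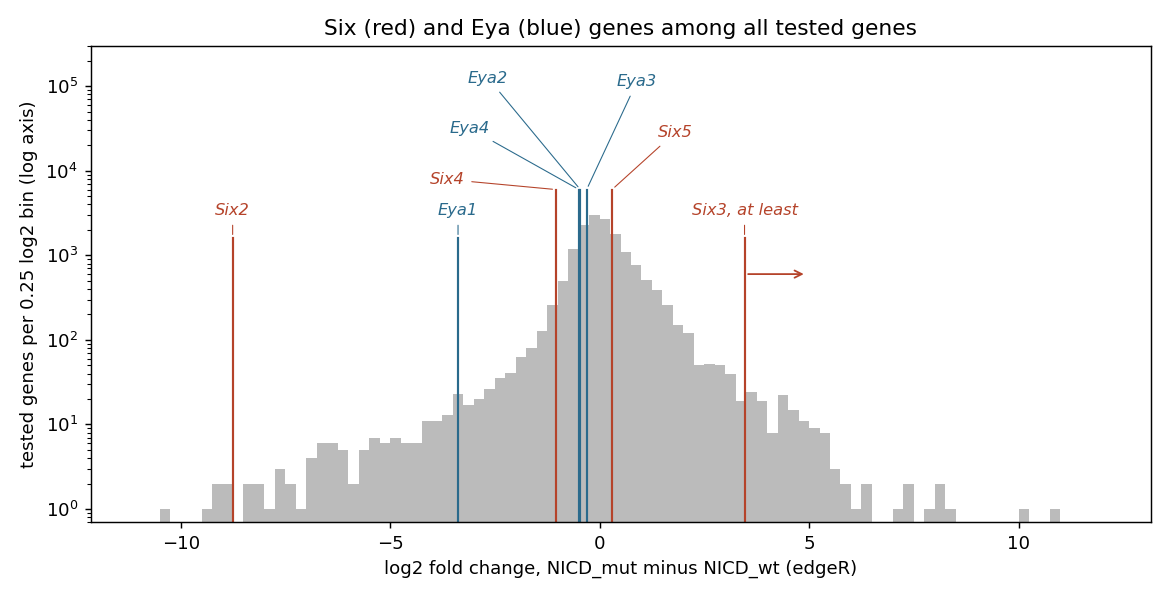
Histogram of log2 fold changes (NICD_mut minus NICD_wt, edgeR) of the 15885 tested genes in bins of 0.25, on a log axis, with vertical lines at Six2 to Six5 (red) and Eya1 to Eya4 (blue). Six2 lies in the far lower tail at -8.76, Eya1 at -3.38, the other Eya genes and Six5 within 0.5 of 0, and Six3 is drawn at its lower bound of 3.46 with an arrow.

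Six2 was the most abundant of the 8 genes in NICD_wt and the least abundant in NICD_mut. Its counts were 7 and 6 in the NICD_mut libraries, against 2667, 3015 and 2411 in the NICD_wt libraries. Both NICD_mut libraries were low by the same order, and the groups were far apart. The 13 counts in NICD_mut correspond to 0.225% of the NICD_wt level, with a 95% Poisson interval of 0.12 to 0.386% that covers counting error in NICD_mut only. The log2 fold change was -8.76 (SE 0.12; adjusted p = 5.76e-10, edgeR). Of the 15885 tested genes 5 (0.0315%), Six2 among them, fell by as much or more. Six2 lies on chr17:85684277-85688274 (mm10, minus strand, protein coding). Bulk counts cannot tell fewer cells of a type from less RNA per cell. The 8 nephron progenitor markers summed to 154 and 125 CPM in NICD_mut, against 594, 614 and 611 CPM in NICD_wt, and none of them was at 0 in any library. Of these markers 6 fell, 1 rose and 1 did not pass by the same test, beside 24.8% of all tested genes that fell and 23.0% that rose. Itga8 (77.31 and 59.9 CPM) and Tmem100 (21.93 and 28.1 CPM) made up most of the NICD_mut sums. Single markers lay between 2.5% (Uncx) and 249% (Tmem100) of their NICD_wt CPM, with Cited1 at 4.97% and Itga8 at 57.6%. The part of the progenitor markers in the values of the 8 genes was not tested.

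Six3 lies next to Six2, with 54974 bases between them, on chr17:85613608-85629302 (mm10, plus strand). It had 15 and 19 counts in the NICD_mut libraries and 0 in each NICD_wt library. The level in NICD_mut was 0.35 and 0.45 TPM, and NICD_wt was listed at 0 TPM throughout. Pooled over the group, NICD_mut had 0.815 CPM (95% Poisson interval 0.564 to 1.14), while 0 of 58557382 counts in NICD_wt allows up to 3 counts, or 0.0512 CPM. The lower limit of that interval over this floor gives Six3 at least 11-fold higher in NICD_mut, for counting error only. Six3 reached the test only through the group in which it is high, so no p is given for it. Its level in NICD_mut was far below the 111.55 to 118.13 TPM of Six2 in NICD_wt. The antisense gene Six3os1, which overlaps Six3 by 4791 bases on the opposite strand, was too low to test, at 3 and 0 counts in NICD_mut against 0, 0 and 2 counts in NICD_wt. Whether counting used strand is not given, so reads from the overlap cannot be assigned to 1 strand.

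Six3 is a gene of the forebrain and eye field, and markers of neural and retinal cells were read beside it. The 8 markers summed to 18.4 and 13.7 CPM in NICD_mut, against 15.9, 13.2 and 14.3 CPM in NICD_wt. The eye field gene Rax was at 2 and 4 counts in the NICD_mut libraries against 1, 0 and 1 in the NICD_wt libraries. Of the 4 neural markers tested, Tubb3 (1.47) and Elavl3 (1.70) rose, Elavl4 (-3.17) fell and 1 did not pass. Tubb3 and Elavl3 did not pass without NICD_mut 1 (0.86 and 1.71) or without NICD_wt 1 (1.25 and 1.53), nor with replicate number as a block (1.60 and 1.51), nor Elavl3 without NICD_mut 2 (1.68) or NICD_wt 3 (1.45). Their part in the Six3 result was not tested.

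The bases just upstream of the Six2 and Six3 starts are shown because Six2 was nearly absent from NICD_mut and Six3 was detected in NICD_mut alone. Windows came from RefSeq on GRCm38.p6 (the mm10 build), matched by symbol for 6 of the 8 genes. Each sequence runs 5′ to 3′ over the 250 bases that end just before the RefSeq start, with CCAAT, or ATTGG where it lies on the other strand, in capitals. The Six3 start used by RefSeq lies inside the longer interval that GENCODE gives this gene.
Six2 (chr17:85688255-85688504, minus strand): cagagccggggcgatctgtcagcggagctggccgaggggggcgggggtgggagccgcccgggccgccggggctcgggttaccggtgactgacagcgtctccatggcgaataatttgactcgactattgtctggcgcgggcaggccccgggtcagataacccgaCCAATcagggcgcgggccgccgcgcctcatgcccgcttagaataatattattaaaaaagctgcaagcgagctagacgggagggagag
Six3 (chr17:85620584-85620833, plus strand): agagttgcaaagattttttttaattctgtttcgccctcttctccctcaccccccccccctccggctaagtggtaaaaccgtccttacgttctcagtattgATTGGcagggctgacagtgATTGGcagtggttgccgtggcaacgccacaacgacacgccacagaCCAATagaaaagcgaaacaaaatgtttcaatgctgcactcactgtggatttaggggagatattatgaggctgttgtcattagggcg
Motifs were searched on both strands of windows of 300 bases, 250 before to 50 after each start. TGGGAA, the core read by the Notch effector RBPJ, was in none of the windows of Six2, Six3, Six4, Six5, Eya3 and Eya4, and in 25.6% of 32851 windows of that length in the genome. TCAGGTT, the MEF3 core read by sine oculis proteins, was in 1 of the 2 Six4 windows, 97 bases before the start, and in 4.1% of all windows. CCAAT, chosen after the sequences were seen, was found once in the Six2 window, 3 times in the Six3 window and in 37.4% of all windows; it does not overlap the other motifs there. A match describes these letters only.

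Genes around Six2 and Six3 mostly showed small differences. Of 34 annotated genes with a start within 1 Mb of the middle of the interval, 14 were in the count table and 12 were tested. Of the 11 other than Six3, 3 fell, Six2 among them, and 1 rose (36.4% called), beside 47.7% of all tested genes. Srbd1, which encodes an RNA-binding protein, changed by -0.43 log2 (SE 0.10) and the sterol transporter Abcg5 by -1.37 (SE 0.39). Slc3a1, the heavy subunit of a proximal tubule amino acid transporter, was at 1.04 (SE 0.28). Without NICD_mut 1, 2 of these genes passed in place of 4. Slc3a1 did not pass without NICD_mut 1 (0.73), NICD_wt 1 (0.93) or NICD_wt 3 (0.92), with no filter (1.02) or with replicate number as a block (0.93). Abcg5 did not pass without NICD_mut 1 (-1.06) or NICD_wt 2 (-1.28). Srbd1 did not pass by limma on log2(TPM + 1) (-0.25), where all genes had a median of 0.112. The other genes that did not pass lay between -0.65 (Abcg8) and 0.25 (Prepl).

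**Figure D3:**
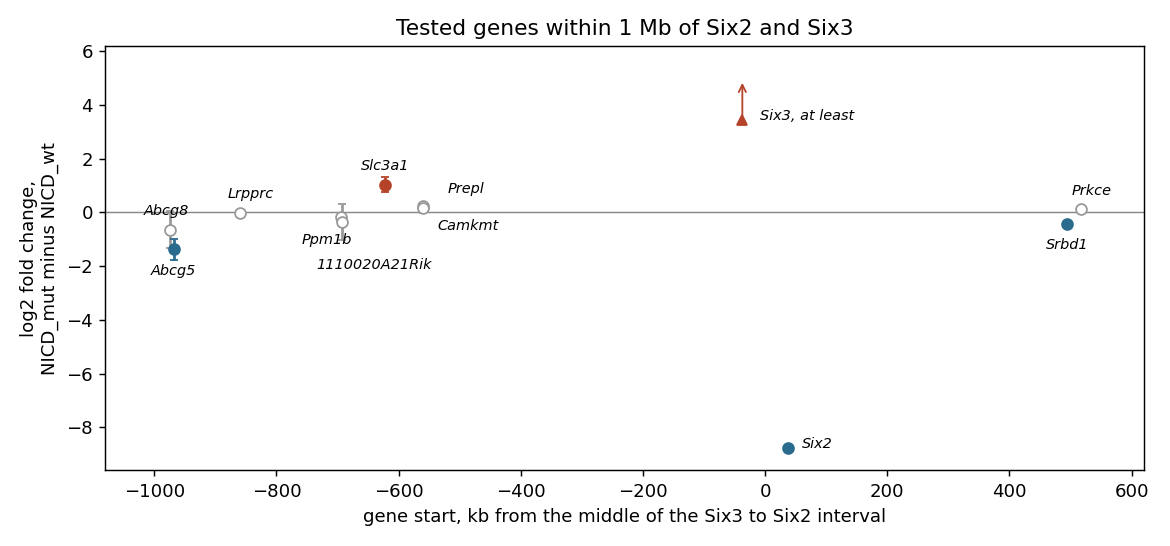
Log2 fold change (NICD_mut minus NICD_wt, edgeR, bars are SE) of the 12 tested genes within 1 Mb of Six2 and Six3, by distance of the gene start from the middle of the interval in kb. Filled red or blue points passed the test as higher or lower, open points did not; Six3 is a triangle at its lower bound, with no test. Six2 at -8.76 and Six3 at 3.46 or more stand beside neighbours between -1.37 and 1.04.

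Six4, which takes part in mouse muscle development, was at 2.70 and 2.62 TPM in NICD_mut, against 4.74, 4.51 and 4.97 TPM in NICD_wt. Both NICD_mut libraries lay below every NICD_wt library. Six4 fell by 1.04 on the log2 scale (SE 0.14; adjusted p = 0.000347, edgeR), to 48.6% of the NICD_wt CPM. It lies on chromosome 12 (73099609 to 73113456, minus strand). On the log2(TPM + 1) scale, which understates changes of low genes, its fold change was -0.65 and it still passed.

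Six5, a broadly expressed member that lies beside the myotonic dystrophy kinase gene on mouse chromosome 7 (19094594 to 19098549, plus strand), moved the other way. Its level was 35.4 and 38.12 TPM in NICD_mut, against 25.51, 27.06 and 29.94 TPM in NICD_wt, with no overlap. Six5 rose by 0.30 on the log2 scale (SE 0.09; adjusted p = 0.0248, edgeR), or 1.23-fold. It did not pass without NICD_mut 2 (0.20), NICD_wt 1 (0.25) or NICD_wt 2 (0.29). On the log2(TPM + 1) scale the change was 0.41, of which 0.112 was the shift of all genes.

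The order of Six2, Six4 and Six5 by level differed between the groups. Six5 was 118 and 147 times as abundant as Six2 per transcript length in NICD_mut, against 0.229, 0.229 and 0.259 times in NICD_wt. The log2 TPM ratio of Six4 to Six5 averaged -3.79 ± 0.106 in NICD_mut (SD, n = 2) and -2.53 ± 0.0923 in NICD_wt (SD, n = 3), a difference of -1.25 (exact permutation test, two-sided p = 0.2, the smallest this design allows).

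Eya1 showed the largest change of the 4 Eya genes. In mouse, loss of Eya1 prevents kidney formation, and in humans EYA1 mutations cause branchio-oto-renal syndrome. Eya1 was at 3.67 and 2.79 TPM in NICD_mut, against 31.34, 28.36 and 32.62 TPM in NICD_wt. Both NICD_mut libraries lay far below every NICD_wt library. The log2 fold change was -3.38 (SE 0.12; adjusted p = 3.36e-07, edgeR), and 149 of 15885 tested genes (0.938%) fell by at least 8-fold. Eya1 spans 141282 bases of chromosome 1 (14168954 to 14310235, minus strand).

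The fall of Eya1 was smaller than that of Six2. The TPM ratio of Six2 to Eya1 was 0.0817 and 0.0932 in NICD_mut, against 3.56, 4.17 and 3.55 in NICD_wt. On the log2 scale it averaged -3.52 ± 0.134 in NICD_mut (SD, n = 2) and 1.91 ± 0.133 in NICD_wt (SD, n = 3), and the groups did not overlap (exact permutation test, two-sided p = 0.2, the smallest possible). With 177 and 137 counts in NICD_mut, Eya1 remained well above the floor of 3 counts, which is 0.14 to 0.147 CPM in these libraries.

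Eya3, the broadly expressed member of the family, was at 24.19 and 25.97 TPM in NICD_mut, against 28.77, 27.46 and 29.47 TPM in NICD_wt. The groups did not overlap, though the gap was small. Eya3 fell by 0.31 on the log2 scale (SE 0.07; adjusted p = 0.00662, edgeR). It did not pass with replicate number as a block (-0.29, adjusted p = 0.0553, edgeR) or by limma on log2(TPM + 1) (-0.18). On that TPM scale all genes had a median of 0.112.

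Eya4, linked to hearing loss in humans, differed between the NICD_mut libraries. It was at 11.51 and 7.63 TPM in NICD_mut, against 12.40, 11.81 and 12.90 TPM in NICD_wt. NICD_mut 1 lay just below the NICD_wt range and NICD_mut 2 well below it. Eya4 fell by 0.49 on the log2 scale (SE 0.16; adjusted p = 0.0328, edgeR). The change was -0.80 without NICD_mut 1, and -0.25 without NICD_mut 2, where it did not pass. It also did not pass without NICD_wt 1 (-0.48), NICD_wt 2 (-0.53) or NICD_wt 3 (-0.47), or by limma on log2(TPM + 1) (-0.36). All genes had a median of 0.112 on that last scale.

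Eya2, which takes part in muscle formation, likewise differed between the NICD_mut libraries. It was at 8.20 and 5.09 TPM in NICD_mut, against 8.17, 8.79 and 8.42 TPM in NICD_wt. NICD_mut 1 lay inside the NICD_wt range and NICD_mut 2 below it. At a log2 fold change of -0.46 (SE 0.20) it missed the threshold (adjusted p = 0.0816, edgeR). Without NICD_mut 1 it was -0.81 and passed (adjusted p = 0.00364, edgeR), with the lone NICD_mut 2 assumed to vary like the other group. Without NICD_mut 2 it was -0.19.

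Eya2 and Eya4 had the largest NICD_mut 1 to NICD_mut 2 ratios of the 8 genes, 1.54 and 1.48 in CPM. The ratios of the others were 1.11 for Six2, 0.75 for Six3, 1.11 for Six4, 0.89 for Six5, 1.23 for Eya1 and 0.888 for Eya3. NICD_mut 1 is also the library with 2630 CPM of muscle markers, against 14.1 CPM in NICD_mut 2, and no muscle marker was at 0 in any library. The 8 stromal markers summed to 14400 CPM in NICD_mut 1 and 7320 CPM in NICD_mut 2, against 4760, 4410 and 3680 CPM in NICD_wt 1, 2 and 3. Of these, 4 rose, 1 fell and 3 did not pass, beside 23.0% of all tested genes that rose and 24.8% that fell. Col1a1, Col1a2 and Col3a1, the 3 that did not pass, made up most of each sum. They were at 4558, 3573 and 5320 CPM in NICD_mut 1 and 1814, 1896 and 2624 CPM in NICD_mut 2. Pdgfra and Tbx18 were also higher in NICD_mut 1. Foxd1 (96.85 and 105.2 CPM), Pdgfrb (315.9 and 442.6 CPM) and Ntn1 (100.1 and 113.7 CPM) were higher in NICD_mut 2. The call of Foxd1 (0.38), a marker of stromal progenitors, was lost without NICD_mut 2 (0.31) or NICD_wt 3 (0.35) and with replicate number as a block (0.36). That of Tbx18 (2.01), a marker of ureteral stroma, was lost without any of the NICD_wt libraries (1.93 to 2.08), with no filter (1.99), by limma-voom (1.86) and with the block (1.86). The part of either cell type in the Eya2 and Eya4 values was not tested. Leaving out NICD_mut 1 and NICD_wt 1, the libraries with most muscle transcripts, which was decided after the values were seen, gave -0.82 for Eya2 and -0.79 for Eya4. Under that exclusion Six2 was at -8.86, Eya1 at -3.53, Six4 at -1.12, Eya3 at -0.23 and Six5 at 0.32.

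**Figure D4:**
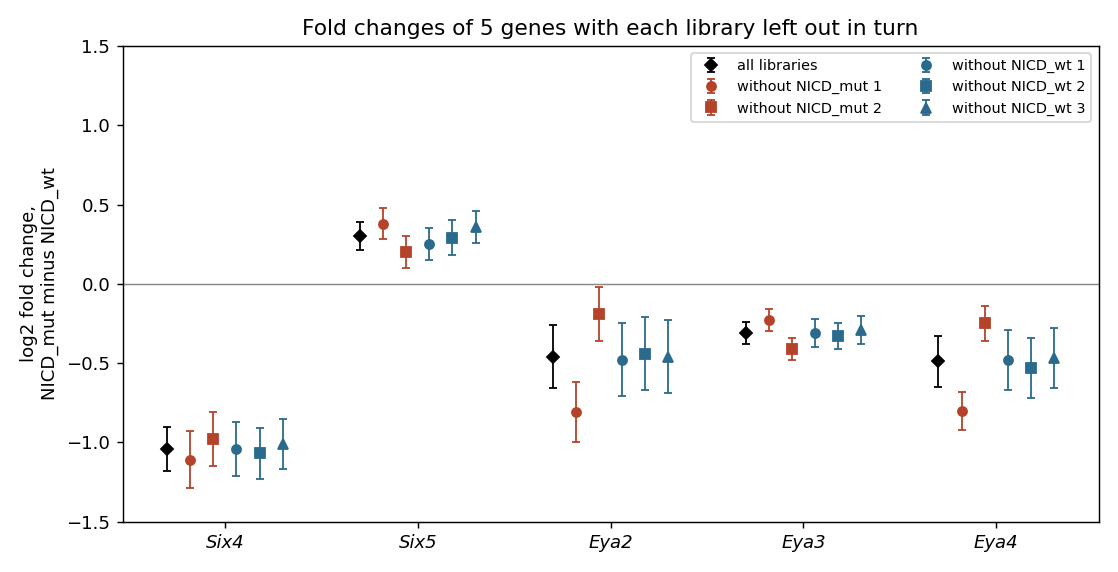
Log2 fold change (NICD_mut minus NICD_wt, edgeR; bars are SE) of the 5 genes with small changes, with all libraries (black diamonds) and with each library left out (red for NICD_mut, blue for NICD_wt). Eya2 and Eya4 shift most, to -0.81 and -0.80 without NICD_mut 1, and to -0.19 and -0.25 without NICD_mut 2; Six4 stays between -1.11 and -0.98.

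How many of the 7 genes other than Six3 passed varied with the processing, and is set here beside the share of all tested genes that passed. All 7 passed without NICD_mut 1 (44.5%) and without NICD_mut 1 and NICD_wt 1 (43.1%). With no filter (36.2%), limma-voom (47.6%), the DESeq2 Wald test (47.7%), its size factors in edgeR (47.5%) or scaling by library size alone (47.8%), 6 passed, as with all libraries in edgeR. With replicate number as a block (34.8%) or without NICD_wt 3 (37.3%), 5 passed, and 4 passed without NICD_mut 2 (48.8%), NICD_wt 1 (38.8%) or NICD_wt 2 (41.2%). Under a strict filter 6 passed (54.1%), and 4 passed by limma on log2(TPM + 1) (44.7%), on log2(TPM + 0.1) (44.4%) and on log2(TPM + 1) with no filter (32.9%). With a required change of 1.5-fold, 3 passed (10.7%).

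Summed over the family, Eya transcripts were at 47.57 and 41.48 TPM in NICD_mut, against 80.68, 76.42 and 83.41 TPM in NICD_wt. Eya1 made up 7.71 and 6.73% of the sum in NICD_mut, against 38.8, 37.1 and 39.1% in NICD_wt. Eya3 made up 50.9 and 62.6% in NICD_mut, against 35.7, 35.9 and 35.3% in NICD_wt. Most of the difference in the sum lay in Eya1. For each of these 3 quantities the groups did not overlap (exact permutation tests, two-sided p = 0.2, the smallest possible). In NICD_wt, Six2 had the highest TPM, followed by Eya1, Eya3 and Six5, whose neighbours in that order overlapped, and then by Eya4, Eya2, Six4 and Six3 without overlap. In NICD_mut the order was Six5, Eya3, Eya4, Eya2, Eya1, Six4, Six3 and Six2, and only Eya4 and Eya2 overlapped. With 2 libraries, the low end of that order rests on few counts.

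**Figure D5:**
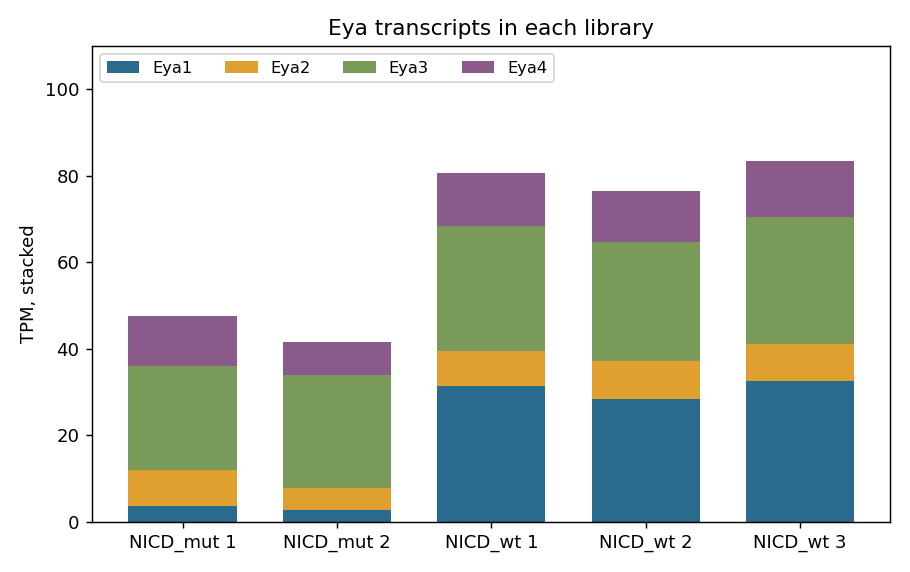
Stacked bars of the TPM of Eya1, Eya2, Eya3 and Eya4 in each of the 5 libraries, from 0. The totals are 47.57 and 41.48 TPM in NICD_mut, against 76.42 to 83.41 TPM in NICD_wt, and the blue Eya1 segment shrinks to 3.67 and 2.79 TPM in NICD_mut.

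Other genes of the Pax-Six-Eya-Dach network and of the kidney mesenchyme went both ways. On a list of 11, 5 fell and 2 rose, 4 missed the threshold, and the median log2 fold change was -0.20, beside 47.7% called and a median of 0.01 over all tested genes. Gdnf, the growth factor with which the mesenchyme attracts the ureteric bud, changed by -4.69 (SE 0.17). The homeobox genes Hoxd11 and Hoxa11, which in mouse act with Pax2 and Eya1 upstream of Six2, changed by -1.19 (SE 0.08) and -1.0 (SE 0.09). Sall1, a zinc finger factor of nephron progenitors, changed by -1.70 (SE 0.13). Pax2 itself, named after its values were seen, changed by -1.97 (SE 0.20).

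The genes of that list that rose, also named after their values were seen, were Pax8 and Wt1. Pax8, a Pax2 relative of the differentiating nephron, rose by 0.80 (SE 0.15). Wt1, expressed in progenitors and strongly in podocytes, was higher by 1.34 (SE 0.24), a call that was lost without NICD_wt 2 (1.30). With a required change of 1.5-fold, Pax8 and Wt1 did not pass. Neither Dach gene passed: Dach1, a co-repressor, was at 0.28 (SE 0.14) and Dach2 at 0.00 (SE 0.15).

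Of 7 co-repressors and other partners of sine oculis proteins, 1 fell and 6 did not pass (14.3% called, beside 47.7% of all tested genes), with a median of -0.19. Aes, a short TLE-family protein, changed by -0.30 (SE 0.06). By limma on log2(TPM + 1), where all genes had a median of 0.112, Aes was at -0.17 and did not pass. The full-length co-repressor Tle1 was at -0.19 (SE 0.07) and Tle6 at -0.92 (SE 0.34). Sobp, the sine oculis binding protein, was at -1.60 (SE 0.63), on 210 and 52 counts in the NICD_mut libraries against 357, 400 and 344 in the NICD_wt libraries. Its 2 NICD_mut libraries differed in the same direction as those of Eya2 and Eya4. Sobp passed without NICD_mut 1 (-2.87) and without NICD_mut 2 (-0.94), and the list count was 3 and 4 in those fits. Tle6 also passed without NICD_mut 1 (-1.25) and, for a list count of 2, without NICD_wt 1 (-1.09). Without NICD_mut 2, Tle1 (-0.23) and the related co-repressor Tle2 (0.41) passed as well.

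Profiles were compared with those of tested genes that have a standard symbol, which leaves out Gm, Rik and clone-style names. The 3 such genes whose profile over the 5 libraries was most like that of each gene were found by the root mean square difference of centred log2 CPM. For Six2 they included Calb1, a calcium-binding protein, at 0.159, and Bsnd, a chloride channel subunit, at 0.707. Calb1 had 12 counts in NICD_mut and 9413 in NICD_wt. For Six3 they were Gatm (0.111), Cbs (0.124) and Abcc8 (0.129), all with counts in NICD_wt, where Six3 had none. Before taking logs, 2 counts were added to each value, which set the Six3 values in NICD_wt. The distances from Six3, and the number of genes near it, depend on that choice. For Eya1 they were Hkdc1 (0.0548), Fgf15 (0.0612) and Wfdc2 (0.146). Only 1 tested gene with a standard symbol lay within 0.25 of Six2, 18 of Six3 and 14 of Eya1.

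The nearest profiles of the other genes were closer, and many more genes lay near them. They were Pdxp, Syce2 and the mitotic checkpoint gene Mad2l1 for Six4 (0.00656 to 0.0339), and Galc, D17H6S53E and Fam171a1 for Six5 (0.02 to 0.0222). They were E2f2, Slc8a1 and Lca5l for Eya2 (0.0424 to 0.0488), Spin1, Gtf2h2 and Kmt5c for Eya3 (0.0135 to 0.016), and Fut10, Ubash3b and Zfp951 for Eya4 (0.0413 to 0.0516). Between 1239 genes with a standard symbol for Six4 and 6928 for Eya3 lay within 0.25 of these 5. These are likenesses over 5 libraries in 2 groups and carry no test.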

How the data were processed

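The authors deposited estimated counts per gene symbol and TPM for the same 5 libraries; the deposited counts are whole numbers. The submitters' processing notes name RSEM, Bowtie2 and the mm10 genome, without versions; the annotation and strand setting they used were not given in these sources. Columns were matched to samples by name.

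Counts were scaled with TMM, passed through filterByExpr (minimum count 10, total 15; 15885 genes kept) and fitted with edgeR 4.0.16 (quasi-likelihood, robust) in R 4.3.3, without covariates. A log2 fold change is NICD_mut minus NICD_wt, and its SE comes from the fit. TPM compares levels between genes. The step was tested on simulated data. It recovered 44.8% of 67 genes with a 1.5-fold change, 73.1% of 67 at 2-fold and 80.3% of 66 at 4-fold. These rates hold for the simulated data only, and a gene that did not pass here may still differ. Alternatives used DESeq2 1.42.0 and limma 3.58.1, as listed in the closing section. Coordinates are GENCODE M21 (mm10). Figures used matplotlib 3.10.9 in Python 3.11.15.

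The members, lists and rules were chosen with earlier results of these data known. Named genes were the 8 members, 3 nearest profiles each, up to 4 genes per list with the smallest adjusted p, and called locus genes. Some genes that this rule names, and other genes of the sine oculis family, are not reported here.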

Additional observations from a re-analysis of the deposited data

How the results depend on the processing

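In 17 alternatives, none of the 7 genes other than Six3 reversed direction, and the calls of Six2, Six4 and Eya1 held in each one run. Six3 is not read here, since it reached the tests only through NICD_mut; it fell below the strict filter (50 counts in 2 libraries) and the TPM filter (mean 0.5), so those give it no value. With limma on log2 TPM, Eya3 did not pass at -0.18 (pseudocount 1), -0.19 (0.1) and -0.18 (no filter), nor did Eya4 at -0.36, -0.40 and -0.36. In these 3 fits all genes had medians of 0.112, 0.125 and 0.077. Requiring a 1.5-fold change, 1695 genes passed in place of 7583, and Six5 (0.30), Eya3 (-0.31) and Eya4 (-0.49) did not. Leaving out each library in turn gave 0.20 to 0.38 for Six5, -0.81 to -0.19 for Eya2 and -0.80 to -0.25 for Eya4. Without NICD_mut 1 and NICD_wt 1, chosen after seeing the data, Eya2 passed at -0.82. The cause was not tested.

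The co-repressor list, with 1 call, had 3 with no filter, 2 with the strict filter, 3 by the DESeq2 Wald test, 2 by limma-voom, 3 without NICD_mut 1 and NICD_wt 1, and 1 to 4 with single libraries left out. It had 0 by limma on log2(TPM + 0.1), 0 on log2(TPM + 1) with no filter and 0 with the 1.5-fold minimum, where 4, 2 and 0 genes had an unadjusted p under 0.05. Six3 reached the locus tests only through NICD_mut, so its call in the locus counts is not read. The TPM filter removed it from limma on log2(TPM + 1) and log2(TPM + 0.1), so a lower count there partly reflects the filter. Other than Six3, 3 of 10 tested locus genes passed in each of these fits, against 4 of 11 in edgeR with all libraries. The locus list, with 5 calls when Six3 is counted, had 3 by limma on log2(TPM + 1), 3 on log2(TPM + 0.1), 2 with the 1.5-fold minimum, 3 without NICD_mut 1 and NICD_wt 1, and 3 to 7 with single libraries left out. Other than Six3 it had 4, with 1 at the 1.5-fold minimum, 2 without NICD_mut 1 and NICD_wt 1, and 2 to 6 with single libraries left out.

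Replicate numbers 1 and 2 are shared between groups, but no label says that they pair samples; deviations from the group means correlated at 0.34 and 0.149. With replicate number as a block, 5535 genes passed, Eya3 did not pass (-0.29) and no other call among the 7 genes changed. Fits that leave out a NICD_mut library keep 1, assumed to vary like NICD_wt. Depth limits Six3 and, in NICD_mut, Six2.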

Other observations

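Among the progenitor markers, Tmem100 moved against the rest, with a log2 fold change of 1.32 (SE 0.15) on 468 and 570 counts in NICD_mut libraries, against 182, 217 and 188 in NICD_wt libraries. Meox2 counts were 144 and 16 in NICD_mut libraries, against 414, 375 and 322 in NICD_wt libraries, and it did not pass (-2.32, SE 0.96).

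The ureteric epithelium markers, which mark a lineage without Six2, summed to 418 and 362 CPM in NICD_mut, against 622, 621 and 619 CPM in NICD_wt. Of the 8, 6 fell, 1 rose and 1 did not pass, beside 24.8% of all tested genes that fell and 23.0% that rose, and none was at 0 in any library. Krt8, the 1 that rose, held 315.6 and 249.9 CPM of the NICD_mut sums, against 161.1, 165.2 and 183.8 CPM in NICD_wt. Calb1, the nearest profile to Six2, is also on this list and changed by -9.09 (SE 0.11). These genes were named after their values were seen.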
